A study of Sus scrofa with 4 samples.

Results

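The genes described here are 10 components of the Hippo pathway, found by their symbols among 29884 rows of a read count table from pig ovarian granulosa cells: SAV1, LATS1, LATS2, AJUBA, AMOTL2, YAP1, WWTR1, TEAD1, TEAD3 and TEAD4. They were chosen by name and pathway role, with earlier results of these data known. Granulosa cells line the follicle wall and nourish the oocyte. They were taken from antral follicles of pigs (Sus scrofa), part of them went to flow cytometry of the cell cycle, and the rest was assigned to a high or a low group by how many cells were in G0/G1, the phases that precede DNA replication. The table holds 2 libraries of the high and 2 of the low group, each labelled ovary and granulosa cells, with no treatment, genotype, breed or age in the labels. The sources used here give neither the G0/G1 shares nor whether a library was 1 follicle, 1 animal or a pool. The p-values below therefore rest on a spread between libraries that may be technical. The series' title concerns an arrest of granulosa cells in G0/G1 under hypoxia, and the question here is which Hippo genes differ with the G0/G1 share.

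The Hippo pathway is a kinase cascade that restrains tissue growth. The kinases encoded by STK3 and STK4, helped by the scaffold SAV1, activate LATS1 and LATS2, which with their MOB1 partners phosphorylate the coactivators YAP1 and WWTR1 (TAZ). Phosphorylated YAP1 and TAZ are held in the cytoplasm or degraded, while unphosphorylated YAP1 and TAZ enter the nucleus and act through TEAD transcription factors on genes such as CCN1, CCN2 and AMOTL2. In the ovary, disruption of Hippo signalling is known to promote follicle growth, and YAP1 is known to act in granulosa cell proliferation. Much of the pathway works by phosphorylation and protein location, which RNA counts do not measure.

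Library totals ran from 27442850 to 32674921 counts, and mitochondrially encoded counts took 1.36% to 2.11%. Levels are in CPM, the usual depth-scaled read count, with library totals adjusted by the trimmed mean method (TMM). CPM depends on transcript length, so levels are compared between libraries for 1 gene and not between genes. Granulosa markers were abundant, with a summed level of 10733 to 17455 CPM over 10 genes, although 1 of them, CYP19A1, had 0 counts in each library. CYP19A3, also on that list, had 32939 to 118837 counts per library. The granulosa sum is carried mostly by INHA, and the single markers differed with the groups. Of 9 tested, 5 were lower and 3 higher in high G0/G1 cells without overlap (88.9%, where 56.6% of all genes did not overlap). While 0 passed edgeR's test, 0 of all genes tested did so either. DESeq2 called 2 of the 9, both lower in high, FSHR (adjusted p = 1.1e-07) and INHBB (adjusted p = 0.0133), against 10.4% of all genes. FSHR, the receptor gene of follicle-stimulating hormone, had 22.5 and 26.0 CPM in high and 81.6 and 85.9 CPM in low replicates 1 and 2. INHBB, an inhibin and activin subunit gene, had 1492 and 557 CPM in high and 3654 and 3023 CPM in low. The 3 higher in high were CYP19A3, NR5A2 and INHA. CYP19A3 had 3986 and 1549 CPM in high and 1444 and 1142 CPM in low. NR5A2 had 1252 and 522 CPM in high and 509 and 399 CPM in low. INHA had 10576 and 8002 CPM in high and 7750 and 6705 CPM in low. A list of 9 fibroblast and smooth muscle markers summed to 1574 CPM in low replicate 2, against 53.8 to 143 CPM in the other 3 libraries. The 6 theca markers summed to 234 and 175 CPM in high and to 388 and 650 CPM in low replicates 1 and 2. NR5A1 was the largest part of these sums in each library, so they are not a measure of theca cells alone. It held 170 and 85.1 CPM of the sums in high and 290 and 274 CPM in low. INSL3 had 17.6 and 30.0 CPM in high and 75.3 and 260 CPM in low. CYP17A1 had 0.772 and 1.02 CPM in high and 0.125 and 51.5 CPM in low. STAR had 9.63 and 1.33 CPM in high and 1.76 and 39.5 CPM in low. PTCH1 alone had a higher estimate in high, at 35.1 and 56.9 CPM against 19.3 and 23.6 CPM in low. Of the 6 theca markers, 3 were lower and 1 higher in high without overlap (66.7%, against 56.6% of all genes). DESeq2 called INSL3 lower (adjusted p = 2.9e-04) and PTCH1 higher (adjusted p = 0.0391), against 10.4% of all genes. Endothelial markers (8 genes) summed to 17.5 and 48.4 CPM in high and to 7.53 and 59.1 CPM in low replicates 1 and 2. High replicate 2 was thus also above high replicate 1 in this sum. Leukocyte markers (8 genes) summed to 0.659 to 3.79 CPM. Oocyte markers (7 genes) summed to 6.43 to 11.5 CPM, with ZP2 and ZP4 at 0 in every library. The oocyte sum was almost wholly GDF9 (8.69 and 9.34 CPM in high, 6.40 and 11.5 CPM in low). Over all genes tested, the root mean square difference in log2 CPM was 0.944 between the high libraries and 0.960 between high replicate 1 and low replicate 1, so high replicate 1 was about as far from its own group as from that low library. The low libraries differed by 0.850, and high replicate 2 differed from them by 1.30 and 1.21. In bulk samples, fewer cells of a type and less RNA per cell cannot be told apart. The part of these marker differences in the levels of the 10 genes was not tested. Without low replicate 2, the estimated log2 fold change changed sign in WWTR1 (-0.05) among the 10 genes, and moved by over 1.5 times in LATS1 (to 0.20) and TEAD3 (to 0.06).

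Of the 10 genes, 8 had a higher estimate in high G0/G1 cells and 2, AJUBA and TEAD4, a lower one. All 10 passed the filter on low counts. LATS2, the paralog of LATS1, had a mean of 108 ± 13.2 CPM in the high and 54.4 ± 0.590 CPM in the low libraries (SD, n = 2 each), the smallest p and the clearest separation among the 10. The coactivator genes YAP1 and WWTR1 overlapped between the groups. The groups did not overlap for SAV1, LATS2, AMOTL2 and TEAD1, all higher in high, or for AJUBA and TEAD4, both lower. That is 6 of 10 genes, where 56.6% of all genes tested had groups that did not overlap.

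No gene passed edgeR's quasi-likelihood test with Benjamini-Hochberg adjustment over 14352 genes at an adjusted p under 0.05: 0 of the 10 genes and 0% of all genes tested. At an unadjusted p under 0.05, 1 of the 10 (LATS2) was found against 20.7% of all genes. DESeq2 called 1 of the 10, LATS2 again, against 10.4% of all genes. limma-voom called 0 of the 10 and 0 of all genes. At its unadjusted p under 0.05 it found 2 of the 10, against 3124 of all 14352 genes. The median log2 fold change (high minus low) was 0.33 for the 10 genes and -0.01 for all genes tested, of which 49.4% had a positive estimate. With 1 library left out, the median of the 10 ran from 0.22 without low replicate 2 to 0.51 without low replicate 1.

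**Figure D1:**
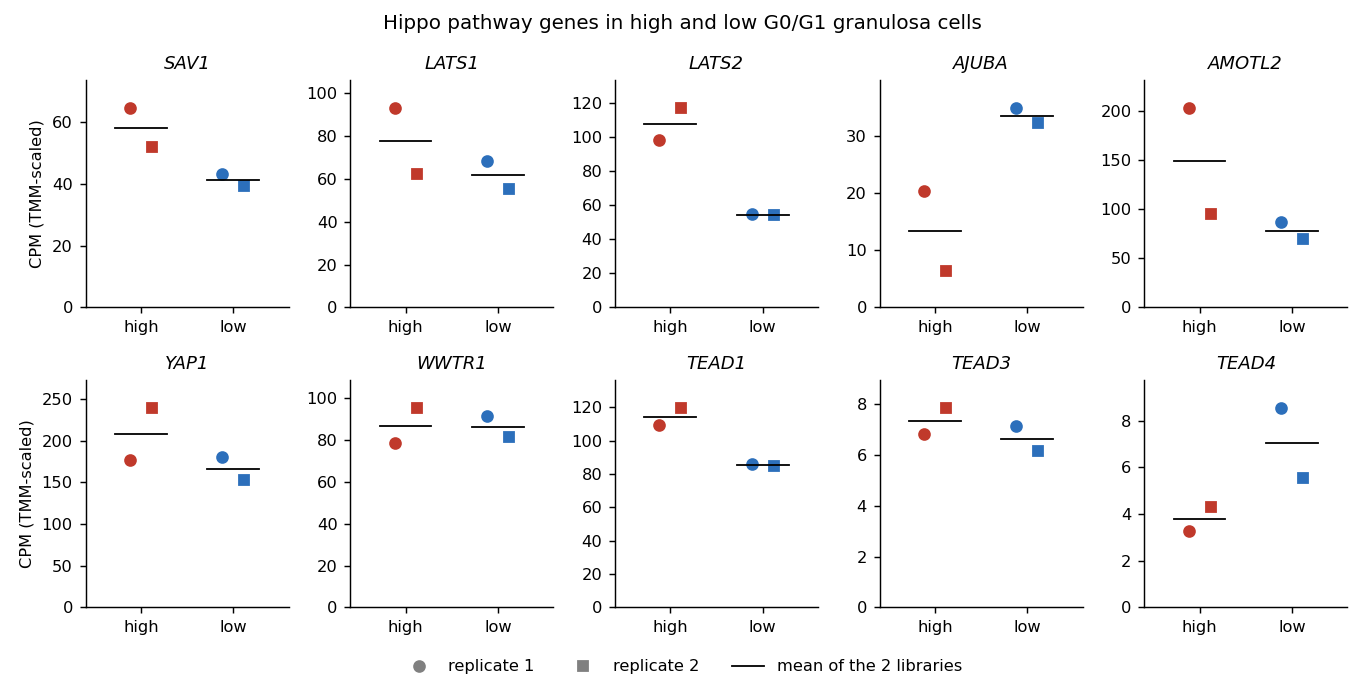
Level of each of the 10 genes in CPM (linear axis from 0, a separate scale per panel) in the 2 high (red) and 2 low (blue) G0/G1 libraries; circles are replicate 1, squares replicate 2, and black lines the mean of each group. LATS2 and TEAD1 show low libraries that nearly coincide below both high ones, while AMOTL2 and AJUBA show high libraries that lie far apart.

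Among the kinase genes, LATS2 and LATS1 had different profiles. LATS2 (chromosome 11, 1225523 to 1265970 in Sscrofa11.1) encodes a kinase that phosphorylates YAP1 and TAZ and is itself a known YAP target gene. Its level was 98.3 and 117 CPM in high replicates 1 and 2 and 54.9 and 54.0 CPM in low replicates 1 and 2. The low libraries nearly coincided, and the 2 high libraries differed by less than either differed from the low ones. The log2 fold change was 0.98 ± 0.20 (SE), with a 95% interval of 0.46 to 1.50 that is not adjusted for the number of genes, and edgeR's adjusted p was 0.156. DESeq2 gave LATS2 an adjusted p of 0.00714. With 1 library left out the edgeR estimate ran from 0.85 to 1.10. DESeq2's call held without high replicate 1 (adjusted p = 0.00603) and was lost without high replicate 2 (adjusted p = 0.0932), low replicate 1 (adjusted p = 0.366) or low replicate 2 (adjusted p = 0.466). In these fits DESeq2 called 15.8%, 6.1%, 2.97% and 2.38% of all genes, in the same order.

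LATS1 (chromosome 1, 16274955 to 16320980), the other kinase gene of the pair, had 92.7 and 62.3 CPM in high and 68.2 and 55.0 CPM in low replicates 1 and 2. The groups overlapped, since high replicate 2 lay below low replicate 1. Its log2 fold change was 0.33 ± 0.28 (SE, edgeR adjusted p = 0.524), and it was 0.02 without high replicate 1. Within a library, the number of LATS2 counts per LATS1 count does not depend on scaling or transcript length when it is compared between libraries. It was 1.06 and 1.88 in high and 0.805 and 0.983 in low replicates 1 and 2, and the groups did not overlap. With 2 libraries against 2, an exact two-sided permutation test cannot go below p = 0.333, the value this ratio gave (adjusted p = 0.599 over 9 ratios computed).

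SAV1 (chromosome 1, 180404871 to 180434458) encodes the scaffold that couples the upstream kinases to the LATS kinases. It had 64.4 and 51.7 CPM in high and 43.1 and 39.4 CPM in low replicates 1 and 2. Each high library exceeded each low one, and the log2 fold change was 0.49 ± 0.22 (SE, edgeR adjusted p = 0.278), with leave-one-out estimates of 0.33 to 0.64. SAV1 overlaps the gene ATL1 in the RefSeq annotation, which had 44 to 114 counts per library, against 1135 to 1919 for SAV1.

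AJUBA and AMOTL2 encode inhibitors of different steps, the LATS kinases and YAP1. AJUBA was lower and AMOTL2 higher in high G0/G1 cells, and both were uneven within the high group. AJUBA (chromosome 7, 76063009 to 76072884) encodes a LIM domain protein of cell junctions that binds LATS kinases and restrains them. Its level was 20.3 and 6.46 CPM in high replicates 1 and 2 and 34.8 and 32.2 CPM in low. The low libraries were alike and both high libraries were below them, but the high libraries differed from each other by more than the high replicate 1 library differed from low replicate 2. AJUBA had a log2 fold change of -1.32 ± 0.55 (SE, edgeR adjusted p = 0.259, DESeq2 adjusted p = 0.131). Without high replicate 1 it was -2.37, and AJUBA passed edgeR's test there (adjusted p = 0.0279), when 6.24% of all genes did, with 1 high library assumed to vary like the low ones. Without high replicate 2 it was -0.72.

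AMOTL2 (chromosome 13, 75490936 to 75507360) encodes a junction protein of the angiomotin family that binds YAP1 and holds it outside the nucleus, and is also a known YAP target gene. It stood at 202 and 95.1 CPM in high replicates 1 and 2 and at 86.7 and 69.2 CPM in low. High replicate 1 was far above the other 3 libraries, and high replicate 2 was only slightly above low replicate 1. Its log2 fold change was 0.93 ± 0.40 (SE, edgeR adjusted p = 0.267), and it was 0.29 without high replicate 1 and 1.38 without high replicate 2. High replicate 1 had the highest AMOTL2 level and, within its group, the higher AJUBA, LATS1 and SAV1 levels, while high replicate 2 had the higher LATS2, YAP1, WWTR1, TEAD1, TEAD3 and TEAD4 levels.

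YAP1 (chromosome 9, 32811629 to 32924926) encodes the pathway's main coactivator. It was detected with 4409 to 6802 counts per library, at 177 and 239 CPM in high replicates 1 and 2 and at 180 and 153 CPM in low. High replicate 1 lay just below low replicate 1, so the groups overlapped, and only high replicate 2 stood above the rest. YAP1 had a log2 fold change of 0.32 ± 0.25 (SE, edgeR adjusted p = 0.488), with a 95% interval of -0.30 to 0.95, and the estimate was 0.09 without high replicate 2.

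WWTR1 (chromosome 13, 89742980 to 89889547), the gene of the YAP1 paralog TAZ, had 78.5 and 95.1 CPM in high and 91.4 and 81.3 CPM in low replicates 1 and 2. Its group means were nearly equal, 86.8 ± 11.7 CPM against 86.3 ± 7.13 CPM (SD, n = 2 each). The log2 fold change was 0.01 ± 0.21 (SE, edgeR adjusted p = 0.989), with a 95% interval of -0.53 to 0.55, and its sign changed with the filter and with the library left out. The number of WWTR1 counts per YAP1 count was 0.443 and 0.398 in high and 0.509 and 0.532 in low libraries, with no overlap (exact permutation p = 0.333, the smallest possible). Among the 9 ratios computed, 5 did not overlap between the groups, each with an exact permutation p of 0.333 (adjusted p = 0.599). A random order of the libraries separates the groups with a probability of 0.333. The ratios also share genes, so the 5 are not separate results.

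The TEAD genes encode the DNA-binding partners of YAP1 and TAZ. TEAD1 (chromosome 2, 46396490 to 46670619) had 109 and 119 CPM in high replicates 1 and 2 and 85.7 and 84.6 CPM in low. Both groups were tight and did not overlap, and the log2 fold change was 0.43 ± 0.19 (SE, edgeR adjusted p = 0.280), from 0.36 to 0.50 with 1 library left out. TEAD1 moved little with the choice of libraries and missed the threshold under each tool.

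TEAD4 (chromosome 5, 67130392 to 67167579) was measured from 97 to 272 counts per library. Its level was 3.25 CPM in high replicate 1 (95% exact Poisson interval 2.64 to 3.97) and 4.28 CPM in high replicate 2 (3.56 to 5.11). In the low libraries it was 8.53 CPM (7.55 to 9.61) and 5.55 CPM (4.72 to 6.48). These intervals cover counting error only. Both low libraries lay above both high ones, but the Poisson intervals of high replicate 2 and low replicate 2 overlapped. The log2 fold change was -0.90 ± 0.43 (SE, edgeR adjusted p = 0.301), and leaving out low replicate 1 or low replicate 2 gave -0.49 or -1.15.

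TEAD3 (chromosome 7, 31337890 to 31351452), also low in counts (177 to 227 per library), stood at 6.81 and 7.83 CPM in high and at 7.12 and 6.14 CPM in low. The groups overlapped, with a log2 fold change of 0.14 ± 0.35 (SE, edgeR adjusted p = 0.842). TEAD2, the remaining TEAD gene and not one of the 10, stood at 109 and 81.8 CPM in high and 116 and 125 CPM in low replicates 1 and 2. Its log2 fold change was -0.34 ± 0.23 (SE, edgeR adjusted p = 0.438). The TEAD4 counts per TEAD1 count were 0.0298 and 0.0359 in high and 0.0996 and 0.0656 in low libraries. TEAD4 was lower and TEAD1 higher in high without overlap, so this ratio had to separate the groups. Its exact permutation p of 0.333, the smallest possible, was fixed by that and adds nothing to the 2 separations.

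**Figure D2:**
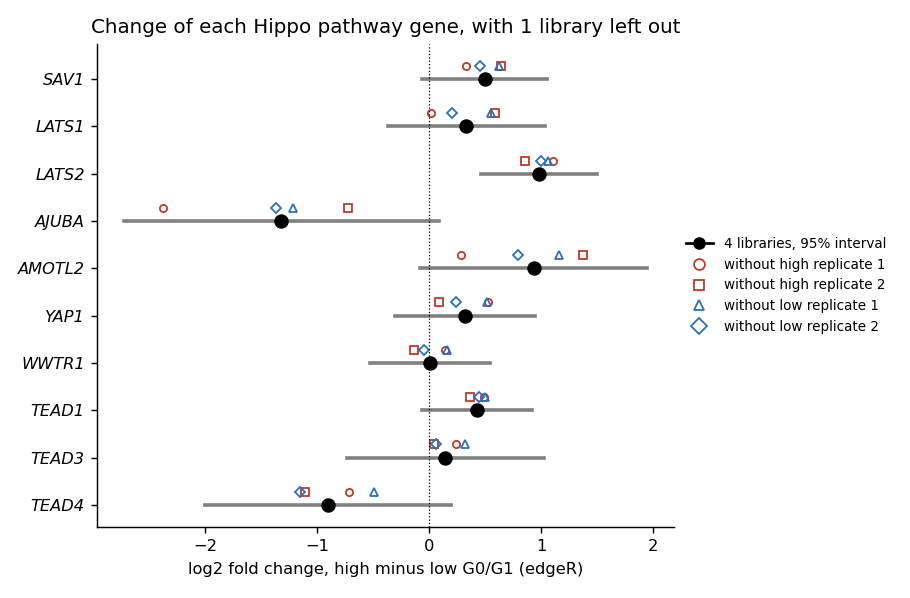
Log2 fold change (high minus low G0/G1) of each gene from edgeR with 4 libraries (black points, grey bars the 95% interval, unadjusted) and with each library left out in turn (open symbols, red for a high and blue for a low library). The interval of LATS2 (0.46 to 1.50) lies above 0, and AJUBA moves between -2.37 and -0.72 and AMOTL2 between 0.29 and 1.38 with the high library left out.

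The rest of the pathway was read from a list of 78 genes, of which 76 were in the table and 74 were tested. Of these, 0 passed edgeR's test over all genes, 9 were higher and 1 lower at an unadjusted p under 0.05, and DESeq2 called 7 higher and 0 lower. The backgrounds for these counts were 9.92% of all genes higher and 10.8% lower by edgeR's unadjusted p, and 5.34% and 5.05% by DESeq2. Groups did not overlap in 59.5% of the 74, with 28 higher and 16 lower, where the shares of all genes were 26.8% higher and 29.8% lower. The median log2 fold change of the 74 was 0.07.

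Among the upstream kinases and their scaffolds, 13 of 21 tested genes had a positive estimate, with a median of 0.26. MOB1B, an activating subunit of the LATS kinases, stood at 71.7 and 64.6 CPM in high and 34.6 and 35.6 CPM in low replicates 1 and 2. Its log2 fold change was 0.96 ± 0.20 (SE, edgeR adjusted p = 0.156, DESeq2 adjusted p = 0.00679), so it separated the groups much like LATS2. Its close paralog MOB1A was not higher, at 169 and 148 CPM in high and 192 and 174 CPM in low, and the sources used here do not say how reads shared by the 2 paralogs were counted. DESeq2's call of MOB1B held without high replicate 2 (adjusted p = 0.0407) and was lost when any of the other 3 libraries was left out.

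The upstream kinase genes STK3 and STK4 had estimates of opposite sign. STK3 stood at 38.4 and 33.3 CPM in high and 29.7 and 29.6 CPM in low, with a log2 fold change of 0.28 ± 0.22 (SE, edgeR adjusted p = 0.502). STK4 stood at 36.1 and 32.3 CPM in high and 45.3 and 49.5 CPM in low, with a log2 fold change of -0.47 ± 0.21 (SE, edgeR adjusted p = 0.275). In both genes the groups did not overlap.

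MAP4K3 encodes a kinase that can act on the LATS kinases in parallel to STK3 and STK4. It had 55.4 and 76.8 CPM in high and 31.7 and 28.3 CPM in low (log2 fold change 1.14 ± 0.25, SE). STK38L, a kinase related to the LATS kinases, had 34.6 and 45.1 CPM in high and 21.2 and 15.1 CPM in low (log2 fold change 1.13 ± 0.29, SE). Both missed edgeR's threshold (adjusted p = 0.162 and 0.171) and were called by DESeq2 (adjusted p = 0.00968 and 0.0252). These DESeq2 calls held without high replicate 1 and were lost when any other library was left out. NF2, which encodes merlin, a membrane-linked activator of the pathway, stood at 81.8 and 86.5 CPM in high and 93.6 and 103 CPM in low (log2 fold change -0.23 ± 0.19, SE, edgeR adjusted p = 0.538).

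Genes that restrain the kinases had a median of 0.08 over 17 tested, with 10 positive. RASSF6, a RASSF family gene whose product binds the upstream kinases, had the smallest unadjusted p among the 74 pathway genes. It stood at 8.12 and 8.95 CPM in high and at 1.07 and 1.60 CPM in low replicates 1 and 2. Its log2 fold change was 2.68 ± 0.44 (SE, edgeR adjusted p = 0.138), and DESeq2 called it (adjusted p = 5.1e-06) and also called it with each library left out in turn (adjusted p from 0.00508 to 0.0470). The relatives of AJUBA had smaller estimates. LIMD1 stood at 52.2 and 69.3 CPM in high and 56.9 and 55.5 CPM in low (log2 fold change 0.11 ± 0.23, SE, edgeR adjusted p = 0.806, and -0.11 without high replicate 2). WTIP stood at 21.3 and 21.6 CPM in high and 29.4 and 31.0 CPM in low (log2 fold change -0.49 ± 0.22, SE, edgeR adjusted p = 0.275).

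YAP-binding, junction and polarity genes were the group nearest to 0, with a median of 0.02 over 28 tested, 15 of them positive, and 0 at an unadjusted p under 0.05 in either direction, against 20.7% of all genes. The angiomotin family genes other than AMOTL2 were low in counts. AMOT had 8.89 and 6.78 CPM in high and 8.09 and 10.2 CPM in low, and AMOTL1 had 3.12 and 2.07 CPM in high and 1.69 and 4.58 CPM in low. In both, the groups overlapped.

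Of 8 tested genes for TEAD2 and cofactors of TEAD factors, 7 had a positive estimate, with a median of 0.30. VGLL4, which competes with YAP1 for TEAD binding, had 195 and 407 CPM in high replicates 1 and 2 and 102 and 62.4 CPM in low. All 4 libraries were spread, yet the groups did not overlap, and the log2 fold change was 1.88 ± 0.45 (SE, edgeR adjusted p = 0.169, DESeq2 adjusted p = 0.00271). The estimate was 2.31 without high replicate 1, where edgeR called it (adjusted p = 0.0431), and 1.25 without high replicate 2. DESeq2's call of VGLL4 was lost without low replicate 2 (adjusted p = 0.149). NCOA3, a coactivator of nuclear receptors and TEAD factors, had 119 and 130 CPM in high and 64.1 and 64.7 CPM in low (log2 fold change 0.95 ± 0.19, SE, edgeR adjusted p = 0.155, DESeq2 adjusted p = 0.00497). That DESeq2 call was lost when any library other than high replicate 1 was left out. VGLL3 overlapped, at 1.44 and 6.28 CPM in high and 2.13 and 4.44 CPM in low, and VGLL1 and VGLL2 did not pass the filter.

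**Figure D3:**
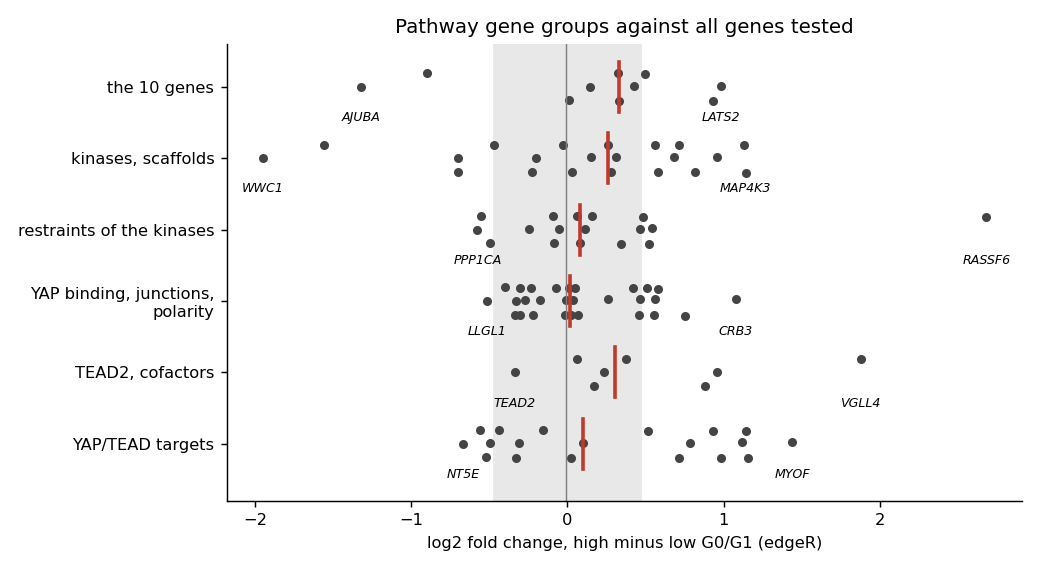
Log2 fold change (high minus low G0/G1, edgeR) of each tested gene in 6 groups, 1 point per gene with a vertical offset for legibility, red bars the group median, and the lowest and highest gene of each group named. The grey band is the middle range of all genes tested, from the lower quartile (-0.47) to the upper quartile (0.47), and the group medians lie between 0.02 and 0.33, inside it.

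Levels of YAP/TEAD target genes were read from a list of 22 genes, of which AMOTL2 and LATS2 are also among the 10. Of these, 19 were tested and ANKRD1, FOXF2 and IGFBP3 did not pass the filter. ANKRD1, a widely used YAP reporter gene, had 1 count in high replicate 2 and 0 in the others. Of the 19, 11 had a positive estimate, the median log2 fold change was 0.10, 0 passed edgeR's test, and 2 were higher at an unadjusted p under 0.05 (10.5%, where 9.92% of all genes were higher). DESeq2 called those 2, LATS2 and MYOF, both higher (5.34% of all genes were called higher, 10.4% in either direction). The groups did not overlap in 5 genes (26.3%), all higher in high, where 26.8% of all genes were higher without overlap and 56.6% did not overlap in either direction. Without AMOTL2 and LATS2, 9 of 17 tested targets had a positive estimate, with a median of 0.02. Of these 17, 1 was higher at an unadjusted p under 0.05 (5.88%), DESeq2 called 1, and 3 were higher without overlap (17.6%).

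MYOF, which encodes the membrane repair protein myoferlin, stood at 624 and 815 CPM in high replicates 1 and 2 and at 220 and 312 CPM in low. Both high libraries were far above both low ones, with a log2 fold change of 1.44 ± 0.29 (SE, edgeR adjusted p = 0.155, DESeq2 adjusted p = 5.7e-04). DESeq2's call was lost without low replicate 1 (adjusted p = 0.186) and held without each of the other libraries.

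The matricellular protein genes that are most used as YAP readouts overlapped between the groups. CCN2, listed in the table as CTGF, had 1553 and 2329 CPM in high and 1880 and 490 CPM in low replicates 1 and 2. Low replicate 2 was far below the other 3 libraries. The log2 fold change was 0.71 ± 0.65 (SE, edgeR adjusted p = 0.562) with all libraries, 0.07 without low replicate 2 and 2.05 without low replicate 1. CCN1, listed as CYR61, had 604 and 404 CPM in high and 656 and 283 CPM in low, and a log2 fold change of 0.10 ± 0.46 (SE, edgeR adjusted p = 0.919) that was -0.36 without low replicate 2. Low replicate 2 was the library with the high fibroblast and smooth muscle sum of 1574 CPM, in which 7 of the 9 markers had their highest level, and the part of those cells in these values was not tested.

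GADD45A, a stress-induced growth arrest gene, had 86.2 and 209 CPM in high and 99.3 and 33.3 CPM in low, and FJX1, a secreted ligand-like protein gene, had 16.5 and 43.5 CPM in high and 17.7 and 9.92 CPM in low. In both genes high replicate 2 was highest, low replicate 2 lowest, and the groups overlapped (edgeR adjusted p = 0.360 and 0.311). The log2 fold change of GADD45A was 1.16, and leaving out low replicate 2 or high replicate 2 gave 0.60 or 0.38. That of FJX1 was 1.12, and the same libraries left out gave 0.79 or 0.26. RBMS3, which encodes an RNA-binding protein, had 5.20 and 5.55 CPM in high and 2.70 and 3.54 CPM in low (log2 fold change 0.78 ± 0.41, SE, edgeR adjusted p = 0.334).

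**Figure D4:**
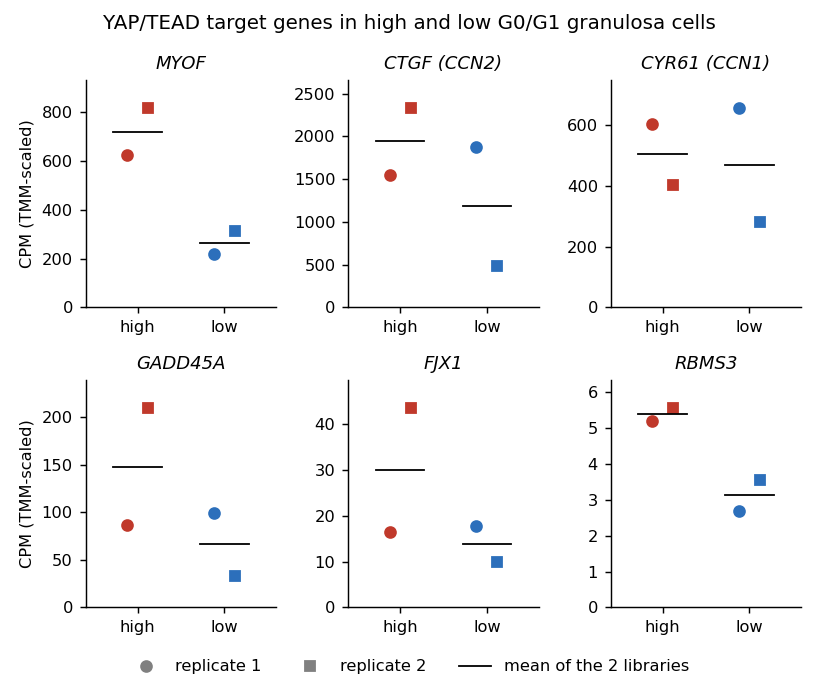
Level in CPM (linear axis from 0, a separate scale per panel) of 6 YAP/TEAD target genes in the 2 high (red) and 2 low (blue) G0/G1 libraries, with circles for replicate 1, squares for replicate 2 and black lines for group means. MYOF (624 and 815 against 220 and 312 CPM) and RBMS3 (5.20 and 5.55 against 2.70 and 3.54 CPM) separate the groups, while the other 4 genes overlap and CTGF (CCN2) is at 490 CPM in low replicate 2. CCN1 and CCN2 were a fixed choice, and the other 4 genes were picked by small p. All 6 have a positive estimate, while 8 of the 19 tested targets have a negative one.

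The profile of YAP1 over the 4 libraries was compared with that of 9602 other genes that averaged at least 3 in log2 CPM, by the root mean square difference of log2 CPM after each gene's mean was removed. The nearest were SPRYD4 (0.0145), FRYL (0.0219) and YRDC (0.0252), with log2 fold changes of 0.35, 0.33 and 0.37. In all, 158 genes lay within 0.1 of YAP1. Among the 10 genes, TEAD3 (0.118), TEAD1 (0.143) and WWTR1 (0.165) were nearest to YAP1, and AMOTL2 (0.600), TEAD4 (0.606) and AJUBA (1.18) were farthest. With 4 libraries that include the 2 groups, such nearness is a description only.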

How the data were processed

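The table the authors deposited gives whole-number counts for each gene symbol and library, which were used as raw counts. Per the submitters' processing notes, HISAT2 aligned the reads to Sscrofa11.1; the sources used here name no counter, annotation release, strand setting or filter, and reads of overlapping or antisense genes cannot be told apart. Of 29884 rows, 29862 matched a RefSeq symbol of Sscrofa11.1, which gave coordinates; the other 22 name mitochondrial RNAs. Replicate numbers follow listing order and pair nothing.

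High was compared with low G0/G1 over 14352 genes with R 4.3.3 and edgeR 4.0.16 (TMM scaling, filterByExpr at a count of 10 and a total of 15, glmQLFit and glmQLFTest, no covariate, Benjamini-Hochberg). The common biological coefficient of variation was 0.371, with 2 residual and 3.20 prior degrees of freedom. DESeq2 1.42.0, limma 3.58.1 (voom), DESeq2's size factors in edgeR, no filter, and leaving out each library were alternatives. Log2 CPM used a prior count of 2. The scripts were tested on simulated data. A count of 0 allows up to 3 counts, or 0.0918 to 0.109 CPM of the unscaled total, for counting error only.

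The 10 genes and the lists were chosen with earlier results of these data known. Named genes are the 10, fixed paralogs, partners and targets (TEAD2, AMOT, AMOTL1, STK3, STK4, MOB1A, MOB1B, NF2, LIMD1, WTIP, VGLL3, VGLL4, CCN1, CCN2, ANKRD1), the 6 smallest p per list (pathway, target) among genes averaging at least 1 in log2 CPM, and the 3 genes nearest to YAP1. CCN1, CCN2 and PALS1 were read under their older symbols CYR61, CTGF and MPP5. MOB4 and CSNK1E of the pathway list, and OOSP2 of the oocyte list, are not analysed here.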

Additional observations from a re-analysis of the deposited data

How the results depend on the processing

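Scaling by DESeq2's size factors left each count of calls at 0 and moved the median of all genes from -0.01 to 0.02 (log2). limma-voom also called 0. Without a filter on low counts edgeR called 5 of all genes and 0 of the 10 Hippo genes. DESeq2 called 1492 genes, 1 of the 10, 7 pathway genes and 2 target genes. With 1 library left out, edgeR's counts ran from 0 to 896 over all genes, 0 to 1 of the 10, 0 to 3 pathway genes and 0 to 1 target genes, each above 0 only without high replicate 1. DESeq2 with 1 library left out, an alternative chosen after seeing the data, called 2273 genes, 2 of the 10, 11 pathway and 7 target genes without high replicate 1. Without high replicate 2 these were 875, 1, 4 and 3. Without low replicate 1 they were 426, 0, 2 and 2, and without low replicate 2 they were 341, 0, 1 and 1. A lone library was assumed to vary like the others, and the causes were not tested.

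Among the 10 genes the log2 fold change changed sign in WWTR1 alone. It was -0.0033 without the filter, ran from -0.14 to 0.16 with 1 library left out, and DESeq2 gave -0.12 without high replicate 2 and -0.081 without low replicate 2. Of the other named genes, which do not include the cell type markers, 4 changed sign. AMOTL1 ran from -0.76 to 0.63, and DESeq2 gave 0.021 without high replicate 2 and 0.60 without low replicate 2. LIMD1 ran from -0.11 to 0.30, with -0.083 by DESeq2 without high replicate 2. VGLL3 ran from -1.18 to 0.94, with -0.028 by limma-voom and, by DESeq2, -1.16 without high replicate 2 and -0.15 without low replicate 1. CCN1 (CYR61) ran from -0.36 to 0.89, and DESeq2 gave -0.19 without high replicate 1 and -0.39 without low replicate 2. TEAD3 and TEAD4 rest on 97 to 272 counts per library. No paired analysis was made, because the labels name no pairing and replicate numbers follow listing order. The library titles carry codes whose meaning the sources used here do not give. Those of high replicate 2 and low replicate 2 begin with the same letter, and whether these libraries share an origin was not tested.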

Other observations

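AMOTL2 and WWTR1 had the same count, 2709, in high replicate 2, while their counts differed in the other 3 libraries (6035 and 2340, 2765 and 2913, 1996 and 2344).

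The 1 pathway gene lower at an unadjusted p under 0.05 was PPP1CA, a catalytic subunit of protein phosphatase 1, named after its values were seen, with 141 and 113 CPM in high and 192 and 187 CPM in low (log2 fold change -0.58 ± 0.22, SE, edgeR adjusted p = 0.228).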
